A study of Mus musculus with 556 samples.

Results

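The bins described here are 100 kb windows of the mouse autosomes that carried a high lamin B1 signal in the zygote and a low one in both later stages examined. They were chosen by measured values: the mean ratio of observed to expected reads (OE) was at least 15% above 1 over zygotes, and at most 0.85 over cells of 2-cell embryos and again over cells of 8-cell embryos. Of 24022 autosomal bins with a value, 1905 met the rule, which is 7.93% of the bins, 24.5% of the 7779 bins that passed the zygote threshold, and 190.5 Mb of the genome. A name for such bins would be zygotic lamina contacts lost for good. The deposited data beyond the 8-cell stage go against that name for many of the bins. In embryonic stem (ES) cells 997 of the 1905 bins (52.3%) averaged an OE of 1 or more, against 43.9% of all bins. Lamina-associated domains of both blastocyst lineages held 1014 (53.2%), a share near the 50.3% of all bins. Both shares were below those of the 1593 bins that passed the zygote threshold at all 3 stages, at 77.9% and 90.4%. In ES cells 709 of the 1905 bins passed the zygote threshold and 598 averaged at most 0.85, against 7676 and 10307 of all 24022 bins. Given these values, the bins are called zygote-high bins here. Since the zygote, 2-cell and 8-cell values chose them, those values are given as a description without a test.

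The nuclear lamina is a meshwork of lamins under the inner nuclear membrane, and the long stretches of chromatin that touch it are called lamina-associated domains (LADs). LADs are typically gene-poor, late-replicating and rich in silent genes, and a single cell shows contact at a subset of the LADs seen in a population. In DamID a bacterial methyltransferase, Dam, is fused to a protein of interest and marks the adenine of GATC sites near it. Dam fused to lamin B1 marks lamina contacts, and Dam alone, which is not tethered, marks accessible chromatin. In the mouse zygote the maternal and paternal genomes lie in separate pronuclei, and the paternal chromatin has just exchanged protamines for histones.

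The sequences below, each far shorter than a bin of 100 kb, show the GATC sites upstream of some genes named in the results. Each is the 250 bases upstream of a gene start, 5′ to 3′ on the gene's strand, from RefSeq in build GRCm38.p6, with the GATC letters that Dam recognises in capitals. Pcdh7 (chr5:57717831-57718080, plus strand) lies in the longest run of zygote-high bins and encodes a protocadherin, a cell adhesion protein. Prl3d1 (chr13:27093939-27094188, plus strand) and Prl3d2 (chr13:27121445-27121694, plus strand) encode placental lactogens of the prolactin family, whose cluster had the largest share of its genes in these bins among the gene lists counted. Gria2 (chr3:80802836-80803085, minus strand) encodes a glutamate receptor subunit, and Olfr1265 (chr2:90036671-90036920, plus strand) an olfactory receptor. The promoters of the last pair lie in bins that were higher in paternal than in maternal pronuclei.
Pcdh7: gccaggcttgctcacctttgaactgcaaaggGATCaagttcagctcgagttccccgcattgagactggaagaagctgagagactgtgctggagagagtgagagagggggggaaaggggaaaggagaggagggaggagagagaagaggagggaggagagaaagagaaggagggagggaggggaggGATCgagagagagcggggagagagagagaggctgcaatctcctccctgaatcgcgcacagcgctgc
Prl3d1: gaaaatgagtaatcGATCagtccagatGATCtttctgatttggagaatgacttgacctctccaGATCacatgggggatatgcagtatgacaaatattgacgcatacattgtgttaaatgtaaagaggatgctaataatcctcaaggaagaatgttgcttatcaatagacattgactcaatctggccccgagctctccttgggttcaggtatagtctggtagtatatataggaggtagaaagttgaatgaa
Prl3d2: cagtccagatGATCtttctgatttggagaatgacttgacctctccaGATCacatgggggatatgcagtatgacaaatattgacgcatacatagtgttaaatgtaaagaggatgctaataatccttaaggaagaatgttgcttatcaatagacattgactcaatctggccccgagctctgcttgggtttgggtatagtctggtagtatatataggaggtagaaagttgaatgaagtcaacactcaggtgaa
Gria2: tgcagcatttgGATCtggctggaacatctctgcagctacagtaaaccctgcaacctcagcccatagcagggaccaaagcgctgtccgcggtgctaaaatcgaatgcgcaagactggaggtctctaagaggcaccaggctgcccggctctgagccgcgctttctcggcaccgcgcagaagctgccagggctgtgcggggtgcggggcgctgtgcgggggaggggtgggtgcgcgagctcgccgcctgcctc
Olfr1265: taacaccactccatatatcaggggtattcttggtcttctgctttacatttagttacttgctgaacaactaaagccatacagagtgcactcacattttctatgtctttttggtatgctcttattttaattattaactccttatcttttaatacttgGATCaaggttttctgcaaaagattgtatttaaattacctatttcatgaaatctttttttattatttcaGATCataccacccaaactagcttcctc
The stretch upstream of Pcdh7 held 2 GATC sites, that of Prl3d1 3, those of Prl3d2 and Olfr1265 2 each, and that of Gria2 1. Prl3d1 and Prl3d2 shared an identical stretch of 91 bases, and Prl3d2 and its neighbour Prl3d3 one of 125 bases, so how reads were divided among these near-identical copies is uncertain. GATC reads the same on both strands and was searched as these letters. It occurred in 334 of the 817 RefSeq promoters in zygote-high bins (40.9%), against 40.3% of all 20042 promoters on the bins. The promoters in zygote-high bins, from 719 genes, had a median GC content of 54.8%, against 56% over all promoters. A match is a description of the letters in this window only.

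Dam-lamin B1 was expressed from injected mRNA in fully grown oocytes, zygotes, 2-cell embryos and 8-cell embryos, and single cells were profiled. The Dam-lamin B1 cells were 56 oocytes, 19 zygotes, 47 blastomeres at the 2-cell stage, 41 blastomeres at the 8-cell stage and 10 ES cells, besides 17 oocytes with the label 20 ng and 23 with the label 50 ng. The cells with Dam alone were 43 oocytes, 46 zygotes, 45 blastomeres at the 2-cell stage and 4 at the 8-cell stage. Further Dam-lamin B1 groups, none of which the rule used, were 15 paternal and 10 maternal pronuclei, zygotes given wild-type (14) or mutant (9) Kdm5b, zygotes given wild-type (12) or mutant (10) Kdm4d, zygotes labelled aphidicolin (9) or DMSO (11), paternal pronuclei with wild-type (19) or mutant (6) Kdm5b, and maternal pronuclei with wild-type (19) or mutant (13) Kdm5b. Kdm5b and Kdm4d are histone demethylases, and aphidicolin inhibits DNA polymerase. The labels give the strain as C57BL/6 for oocytes and pronuclei, as C57BL/6 mothers with CAST/EiJ fathers for whole zygotes and cleavage-stage embryos, and as 129/Sv mothers with CAST/EiJ fathers for ES cells, whereas the protocol names F1 (CBAxC57BL/6J) females of 5 to 8 weeks as egg donors. The injected Dam-lamin B1 mRNA was 5 ng/µl for oocytes and zygotes, 10 for 2-cell and 20 for 8-cell embryos, and Dam mRNA was 20 or 40 ng/µl, so stages also differ in dose. Every embryo group carried an auxin-inducible degron on Dam and the auxin receptor TIR1, with auxin withheld for 6 to 8 h. That window opened 21 h after hCG in zygotes, at 42 h in 2-cell embryos and at 66 h in 8-cell embryos. For pronuclei without Kdm5b and for zygotes labelled aphidicolin or DMSO, the labels as read here give neither this dose nor this time. Kdm5b mRNA was given at 2 µg/µl, 18 h after hCG. The sources used here do not say what the mutations change, how much Kdm4d mRNA was given, or when and at what dose zygotes received aphidicolin, since the protocol describes that drug for 2-cell embryos. Pronuclei were told apart by size and by their position relative to the second polar body. Mother, litter and day are unnamed, so p-values measure the spread between these cells, which may be technical.

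Depth was recovered from the whole-number steps of the OE values and ran from 23522 to 1090263 reads per cell, with a median of 71684. In the median zygote 1 read was worth an OE of 0.588 in the median zygote-high bin, against 0.570 over all bins, so a single bin in a single cell rests on few reads. The median SD over the 19 zygotes within a zygote-high bin was 1.3, which gives a standard error of 0.298 for a zygote mean. Most statements below therefore rest on means over cells or over many bins. Counts of cells that reached an OE of 1 in a single bin rest on few reads. For the zygotes of the rule and the cleavage stages, they also come from the values that chose the bins. The depth would be a multiple of these figures if the smallest step stood for several reads, and counting error is all that it describes.

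Zygote-high bins stood low in oocytes, high in zygotes, low again at both cleavage stages, and at an intermediate level in ES cells. With Dam-lamin B1 the median bin had a mean OE of 0.537 in oocytes, 1.49 in zygotes, 0.500 in 2-cell embryos, 0.581 in 8-cell embryos and 1.02 in ES cells. Over all bins the medians were 0.872, 0.903, 0.862, 0.896 and 0.930 in the same order. Averaged over the zygote-high bins within each cell, OE was 0.627 ± 0.131 in oocytes (SD, n = 56), 1.57 ± 0.168 in zygotes (n = 19), 0.499 ± 0.0753 in 2-cell embryos (n = 47), 0.569 ± 0.0758 in 8-cell embryos (n = 41) and 1.06 ± 0.0878 in ES cells (n = 10). The 19 zygotes spanned 1.31 to 1.84. Their values chose the bins, so their distance from the other stages is a description only, and zygotes outside the rule reached lower, at 0.833 to 1.48 with DMSO, 0.901 to 1.49 with wild-type Kdm5b and 0.647 to 1.63 with wild-type Kdm4d. The 56 oocytes spanned 0.437 to 1.04, the 2-cell embryos 0.365 to 0.636, the 8-cell embryos 0.417 to 0.799 and the ES cells 0.950 to 1.2. The ES cells overlapped the upper end of the oocytes and the zygotes outside the rule. The labels name no animal or embryo of origin for these cells, so each stage counts as 1 sample and no stage was tested against another. Oocytes labelled 20 ng and 50 ng had medians of 0.638 and 0.650 over the zygote-high bins.

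Contact in the zygote was frequent but not uniform. An OE of 1 or more, taken as a contact, was seen at the median zygote-high bin in 17.9% of oocytes, 57.9% of zygotes, 17.0% of 2-cell cells, 19.5% of 8-cell cells and 50% of ES cells. The same shares over all bins were 35.7%, 36.8%, 34%, 36.6% and 40%. Oocytes, which the rule did not use, showed contact at these bins in a lower share of cells than at the median bin of the genome. The zygote, 2-cell and 8-cell shares come from the values that chose the bins and are a description only.

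Dam alone, the readout of accessibility, was low in the same bins at each stage. Its median in the zygote-high bins was 0.559 in oocytes, 0.520 in zygotes, 0.454 in 2-cell embryos and 0.190 in 8-cell embryos, against 0.995, 0.956, 0.889 and 0.582 over all bins. The per-cell mean with Dam alone was 0.652 ± 0.0804 in zygotes (SD, n = 46) and 0.613 ± 0.0415 in 2-cell embryos (n = 45). The zygotes with Dam alone spanned 0.511 to 0.840, which overlapped the Dam-lamin B1 zygotes with DMSO and with wild-type Kdm4d at their lowest. At the 2-cell stage both constructs gave low values, with a median bin at 0.500 for the fusion and 0.454 for free Dam.

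**Figure D1:**
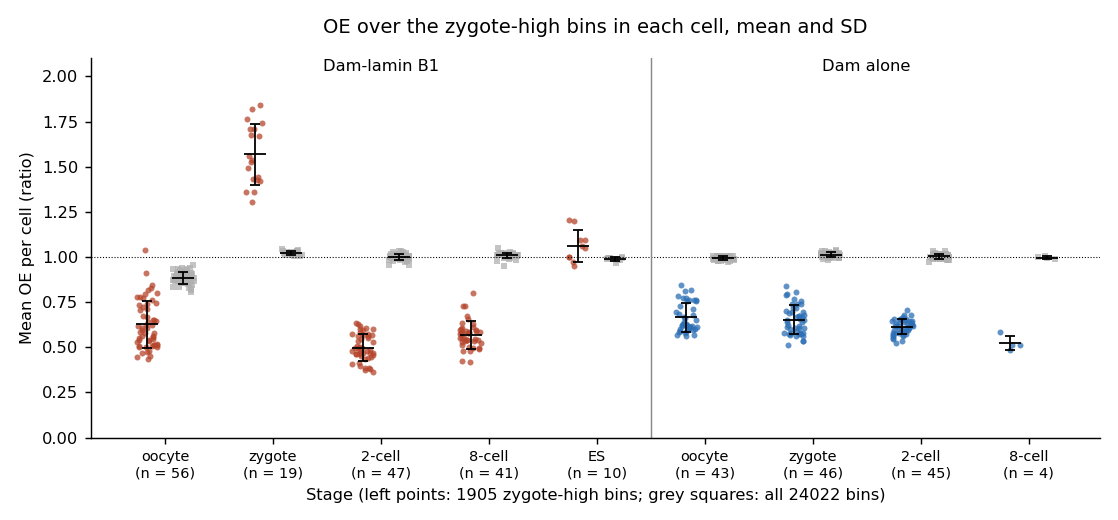
Mean OE over bins in each single cell (points, vertical axis) by stage and construct (horizontal axis), for the 1905 zygote-high bins and for all bins, with the group mean and SD. The 19 zygotes with Dam-lamin B1 sit between 1.31 and 1.84 in the zygote-high bins, which their values chose, and the 10 ES cells sit between 0.950 and 1.2.

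The zygotic level of these bins was lower in zygotes that had not been used to choose them. The median zygote-high bin had a mean OE of 1.13 in DMSO zygotes, against 1.49 in the 19 zygotes of the rule, and 1281 of 1905 bins (67.2%) averaged 1 or more in DMSO zygotes. Both the choice of bins and the handling of the embryos differ between these groups, and their parts were not tested.

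A large part of the zygote-high bins lay in blastocyst LADs. The authors deposited LAD coordinates for the inner cell mass (ICM), which gives rise to the embryo proper, and the trophectoderm (TE), which gives rise to the placenta. Counting a bin when a LAD covered at least 50% of it, 1201 of the 1905 zygote-high bins (63.0%) lay in ICM LADs and 1361 (71.4%) in TE LADs, against 58.5% and 59.8% of all bins. TE LADs alone held 347 zygote-high bins (18.2%, against 9.47% of all bins) and ICM LADs alone held 187 (9.82%, against 8.23%). Neither list held 357 of them (18.7%), against 32% of all bins. Bins that passed the zygote threshold in zygotes, 2-cell and 8-cell embryos alike, 1593 in number and called kept bins here, lay in both lists in 90.4% of cases and in neither in 1.88%.

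The ES-cell level differed with the blastocyst LADs. In the 1014 zygote-high bins of both lists the median ES-cell OE was 1.1 and 633 bins (62.4%) averaged 1 or more, against 1.16 and 67.4% for all bins of both lists. In the 357 bins of neither list the median was 0.682 and 63 bins (17.6%) averaged 1 or more, against 0.635 and 8.79% for all bins of neither list. With Dam alone in zygotes the zygote-high bins of neither list had a median of 1.32, against 1.36 for all bins of neither list, while those of both lists had 0.500. In paternal pronuclei the bins of neither list had a median of 0.854, against 0.697 for all bins of neither list, and those of both lists had 1.5.

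**Figure D2:**
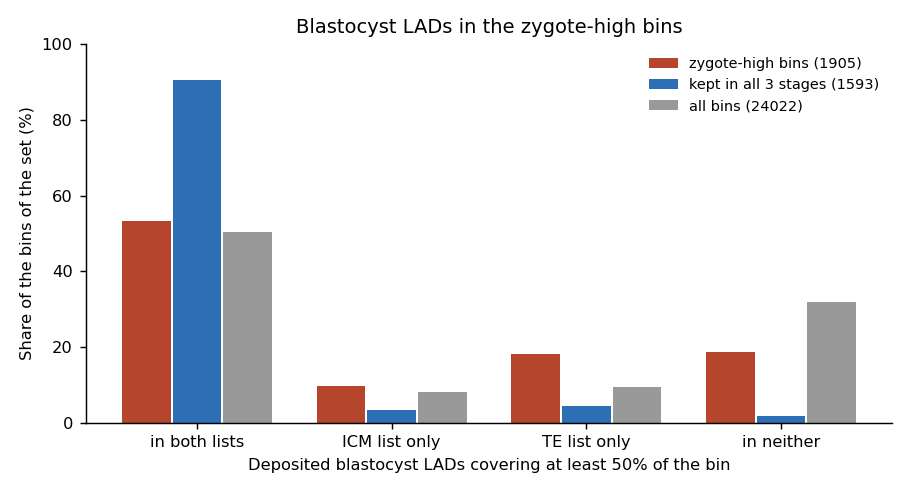
Share of bins in percent (vertical axis) covered at least 50% by the deposited LADs of both blastocyst lineages, of ICM or TE alone, or of neither (horizontal axis), for the zygote-high bins, the kept bins and all bins. Of the zygote-high bins 53.2% are in both lists and 18.7% in neither, against 90.4% and 1.88% of the kept bins.

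The bins were spread over all 19 autosomes with uneven density. They made up from 4.17% of the bins on chromosome 7 to 16.7% on chromosome 16, where 159 of 952 bins qualified, and 11.1% on chromosome 5. Chromosome ends held few of them. Of the zygote-high bins 2.68% lay in the first 10 Mb of mapped sequence of a chromosome and 4.2% in the last 10 Mb, against 7.93% and 7.88% of all bins. Mouse autosomes carry their centromere at the first of these ends. Zygote-high bins formed 1184 runs of neighbours, of which 820 were single bins, and 1085 bins (57%) lay in runs of 2 or more. Runs of 5 or more numbered 43 and held 283 bins.

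The longest run, 13 bins at chr5:56800001-58100000, contains the start of Pcdh7. Its mean OE per zygote was 0.935 at the lowest, 1.81 at the median and 2.72 at the highest. Cells of 2-cell embryos gave 0.0318, 0.429 and 1.04, and cells of 8-cell embryos 0, 0.395 and 0.916. The zygotes lay above all 8-cell cells, and their range overlapped that of 2-cell cells at the ends. The values of these stages chose the run, so their separation is a description only. Oocytes were mostly low, at 0.0398, 0.249 and 3.77. ES cells gave 0.443, 1.11 and 1.42, with a range that overlapped those of the cleavage stages and of the zygotes, and zygotes with Dam alone 0.0612, 0.465 and 1.1. Paternal pronuclei had 0.580, 1.82 and 2.22 in the same run, against 0.161, 0.717 and 1.45 in maternal pronuclei. Paternal pronuclei with wild-type Kdm5b had 0.436, 0.798 and 1.39, against 0.874, 1.43 and 1.77 with mutant Kdm5b. In both pairs the ranges overlapped.

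The next runs differed in what followed the 8-cell stage. The 12 bins at chr15:49300001-50500000 held no protein-coding gene, had a mean OE of 1.54 in zygotes, 0.502 in 2-cell, 0.567 in 8-cell embryos and 1.22 in ES cells, and all 12 lay in both LAD lists. The 11 bins at chr4:78900001-80000000 had 0.799 in ES cells, and the 9 at chr10:47800001-48700000 had 0.821. The 9 bins at chr8:37600001-38500000, in the long gene Sgcz, which encodes a sarcoglycan, had 0.70 in ES cells, and 6 of the 9 lay in neither list. Of the 5 longest runs, the first pair thus had an ES-cell mean above 1 and the others did not.

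The bins next to the longer runs were high in zygotes too. At the 86 edges of the 43 runs of 5 or more, the first bin inside had a mean OE of 1.64 in zygotes and the first bin outside 1.45. In oocytes the same bins had 0.505 inside and 0.666 outside, at the 2-cell stage 0.452 inside and 0.784 outside, and at the 8-cell stage 0.525 inside and 0.736 outside. A step at the edge was therefore seen in the cleavage stages, where the rule set it, and also in oocytes. Zygotes stayed at 1.31 even 1000 kb outside. ES cells had 1.06 inside and 1.146 outside, with no step of that size. Dam alone had 0.485 inside and 0.559 outside in zygotes, and 0.411 inside and 0.519 outside at the 2-cell stage. Paternal pronuclei, which the rule did not use, had 1.44 inside and 1.56 outside, and maternal pronuclei 0.833 inside and 0.914 outside.

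**Figure D3:**
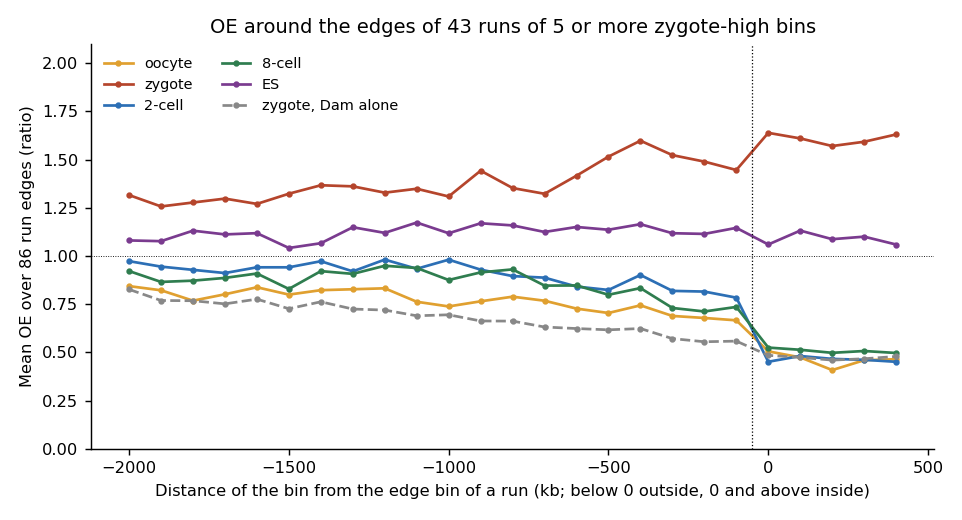
Mean OE (vertical axis) by distance from the edge of runs of 5 or more zygote-high bins (horizontal axis, kb, negative outside the run), for each stage and for zygotes with Dam alone, over 86 edges. At the edge the 2-cell line drops to 0.452 inside, against 0.784 outside, while the zygote line is at 1.64 inside and 1.45 outside.

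Genes were sparse in the zygote-high bins. They held 0.478 midpoints of protein-coding genes per bin, against 0.855 over all bins, and 1469 (77.1%, against 55.7%) held none. No gene body at all overlapped 1138 of them (59.7%, against 35.1%), and 206 (10.8%, against 8.45%) lay within a gene longer than 500 kb. Their 911 genes were 4.44% of the 20527 genes placed on bins. The 114 bins with at least 3 gene midpoints (5.98%, against 9.86% of all bins) had a median zygote Dam OE of 1.59, against 0.493 in the bins with none. Their median in DMSO zygotes with Dam-lamin B1 was 0.927, in paternal pronuclei 0.853 and in ES cells 0.724, against 1.17, 1.5 and 1.08 in the bins with none. All bins of the genome with at least 3 midpoints had 1.48 with Dam alone, 0.793 in DMSO zygotes, 0.741 in paternal pronuclei and 0.691 in ES cells.

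The prolactin family had the largest share of genes in zygote-high bins among the 22 gene lists counted. These secreted hormones of the placenta and decidua are encoded in a cluster on mouse chromosome 13, and 16 of 25 (64.0%) had their midpoint in 8 such bins between chr13:27000001 and chr13:28100000. The median of the 8 bins was 0.296 in oocytes, 1.40 in zygotes, 0.387 in 2-cell embryos, 0.536 in 8-cell embryos and 1.01 in ES cells. All 8 lay in TE LADs and 3 in ICM LADs, and the TE lineage forms the cells that later express many of these hormones. In the bin of Prl3d1, which also holds Prl, OE per zygote was 0 at the lowest, 1.1 at the median and 3.58 at the highest, and 11 of 19 zygotes reached 1. In that bin 5 of 47 cells of 2-cell embryos, 5 of 41 cells of 8-cell embryos and 6 of 10 ES cells reached 1. All 8 bins had a positive paternal-minus-maternal difference, with a median log2 difference of 0.82, though none passed the test of that comparison given below.

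Genes of synaptic transmission and cell adhesion were present in smaller numbers. Of 16 genes for receptors of gamma-aminobutyric acid, the main inhibitory transmitter of the brain, 4 lay in zygote-high bins, among them Gabrg1 on chromosome 5 and Gabra6 and Gabrb2 on chromosome 11. Their 4 bins, all in both LAD lists, had a median of 1.60 in zygotes, 0.742 in 2-cell embryos, 0.468 in 8-cell embryos and 1.19 in ES cells. Of 26 glutamate receptor genes, which serve excitatory transmission, 4 lay in such bins (Gria2, Grm7, Grik5 and Grik2). The bin of Gria2 reached an OE of 1 in 15 of 19 zygotes, 3 of 47 cells of 2-cell embryos, 9 of 41 cells of 8-cell embryos and 8 of 10 ES cells. Of 55 long genes for adhesion and synapse proteins 7 lay in such bins, among them Cdh7, Cdh10 and Cdh18, which encode cadherins, and Cntn5 and Cntn6, which encode contactins, and of 67 protocadherins 3 (Pcdh7, Pcdh20 and Pcdh9). The shares of these 4 lists were 25%, 15.4%, 12.7% and 4.48% in the order given, against 4.44% of all genes. Protocadherins thus stood at the share of all genes.

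Olfactory receptors gave the largest number of genes, 123 of 1103 (11.2%) in 30 bins, all 30 in ICM LADs and 28 in TE LADs. Those were 30 of the 338 bins with such genes, where 7.93% of all bins were zygote-high. Of the 1103 genes, 746 lay in bins that passed the zygote threshold. Of all 20527 genes 3894 did, with 911 in zygote-high bins. The 30 olfactory receptor bins had a median OE of 1.84 in zygotes, 0.542 in 2-cell embryos, 0.697 in 8-cell embryos and 1.44 in ES cells. The vomeronasal receptors, which detect pheromones, had 7 of 340 genes in 4 such bins. Genes of broadly used functions were also found. Solute carriers, the membrane transporters, had 16 of 362 genes in 15 bins with a median zygote Dam OE of 1.91, and ribosomal proteins had 4 of 92 in 4 bins with 1.67. Their shares of 4.42% and 4.35% were near the 4.44% of all genes. Developmental transcription factors had 4 of 119 (Sox18, Gata2, Sox6 and Tbx6), potassium channels 5 of 92, Zfp zinc finger genes 9 of 384, histones 5 of 75 in 1 bin, and cytochrome P450 families 3 of 77. Pramel and Oog genes and serpins had 1 gene each and defensins 2. Keratins, Hox clusters, UDP-glucuronosyltransferases, the genome activation genes and the pluripotency genes had none.

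Whether the signal of these bins belongs to lamin B1 and not to Dam itself was tested with zygotes outside the rule, 11 DMSO zygotes with Dam-lamin B1 against 46 zygotes with Dam alone. Of 1904 zygote-high bins tested, 1204 were higher with Dam-lamin B1 (limma on log2(OE + 0.5), adjusted p under 0.05 over all bins), where 23.5% of all bins were higher. Another 146 were lower, where 21.9% of all bins were lower. The median log2 difference was 0.68 over the zygote-high bins, -0.01 over all bins and 0.51 over the kept bins. A positive difference was found for 1655 of 1904 bins (86.9%), against 49.6% of all bins. DMSO was given to 1 of the groups only, and median depth was 124690 reads in the DMSO zygotes and 94120 in those with Dam alone. The mRNA dose of the DMSO zygotes and the start of their auxin-free window were not given, so these may differ too. When every cell was thinned to equal reads, 628 bins were higher and 93 lower, against 2837 higher and 2444 lower of all 23919 bins tested.

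Of the bins that were higher with Dam-lamin B1, that with the smallest adjusted p, chr16:75400001-75500000, lay within Robo2, which encodes an axon guidance receptor. It had 0.997 at the lowest, 1.66 at the median and 3.45 at the highest in DMSO zygotes with Dam-lamin B1, against 0, 0.324 and 1.65 with Dam alone. The log2 difference was 1.58 (SE 0.241, limma adjusted p = 2.33e-07), and the ranges overlapped. Spock3, which encodes a secreted proteoglycan, lay at chr8:63100001-63200000 with 0.741, 1.33 and 3.41, against 0, 0.343 and 1.21 with Dam alone, a log2 difference of 1.43 (SE 0.240, limma adjusted p = 1.79e-06). Of the listed families, the bins of gamma-aminobutyric acid receptors were higher in 4 of 4, those of olfactory receptors in 25 of 30, those of prolactins in 6 of 8, those of long adhesion genes in 5 of 7, those of protocadherins in 2 of 3 and those of vomeronasal receptors in 3 of 4, beside 63.2% of all zygote-high bins. Glutamate receptors had 1 higher and 1 lower of 4, potassium channels 2 and 2 of 5. No bin was higher and 2 were lower among the 8 bins of Zfp genes, the 4 of developmental transcription factors and the 4 of ribosomal proteins, in each case. The bin of Pcdh7 had a log2 difference of 0.61 (SE 0.251, limma adjusted p = 0.0359). Gria2 did not pass, at 0.43 (limma adjusted p = 0.154).

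The 5 bins named for being lower with Dam-lamin B1 lay in neither LAD list, 4 of them held genes, and their means with Dam alone ran from 1.89 to 2.95. The bin with the smallest adjusted p on that side, chr19:7100001-7200000, holds Macrod1, which removes ADP-ribose from proteins, and Flrt1, an adhesion protein. It had 0, 0.238 and 1.29 in DMSO zygotes with Dam-lamin B1, against 0.499, 2.22 and 8.15 with Dam alone. The log2 difference was -1.78 (SE 0.237, limma adjusted p = 5.95e-09). In the 19 zygotes of the rule the same bin averaged 1.17 ± 1.12 (SD), close to the threshold, and 9 of 19 reached 1. Mark3, Ckb and Trmt61a shared the bin chr12:111600001-111700000, with a log2 difference of -1.62, and the bin of Mst1r and 6 other genes at chr9:107900001-108000000 had -1.40 (SE 0.223). Of the 15 solute carrier bins, 11 were lower with Dam-lamin B1 and 1 was higher. With Dam alone the solute carrier bins had a median of 1.91, as given above.

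Paternal pronuclei carried more of this signal than maternal ones. The median zygote-high bin had a mean OE of 1.44 in paternal and 0.892 in maternal pronuclei, against 0.903 and 0.860 over all bins, and 1583 bins (83.1%) in paternal and 789 (41.4%) in maternal pronuclei averaged 1 or more. Averaged per pronucleus over the zygote-high bins, OE was 1.41 ± 0.187 in paternal pronuclei (SD, n = 15, range 1.14 to 1.64) and 0.996 ± 0.133 in maternal pronuclei (n = 10, range 0.85 to 1.22), so the ranges overlapped at their ends. A mean that passed the zygote threshold in paternal pronuclei and was at most 0.85 in maternal pronuclei was found for 636 zygote-high bins (33.4%), against 9.90% of all bins and 6.03% of the kept bins. The opposite pattern was found for 60 (3.15%, against 7.49%). Both pronuclei passed the zygote threshold in 466 (24.5%, against 17.7%). The 636 paternal bins had a median of 0.364 in oocytes, 1.51 in zygotes, 0.417 in 2-cell embryos, 0.570 in 8-cell embryos and 1.14 in ES cells. The 466 bins high in both pronuclei had 0.616, 1.62, 0.567, 0.607 and 1.04.

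**Figure D4:**
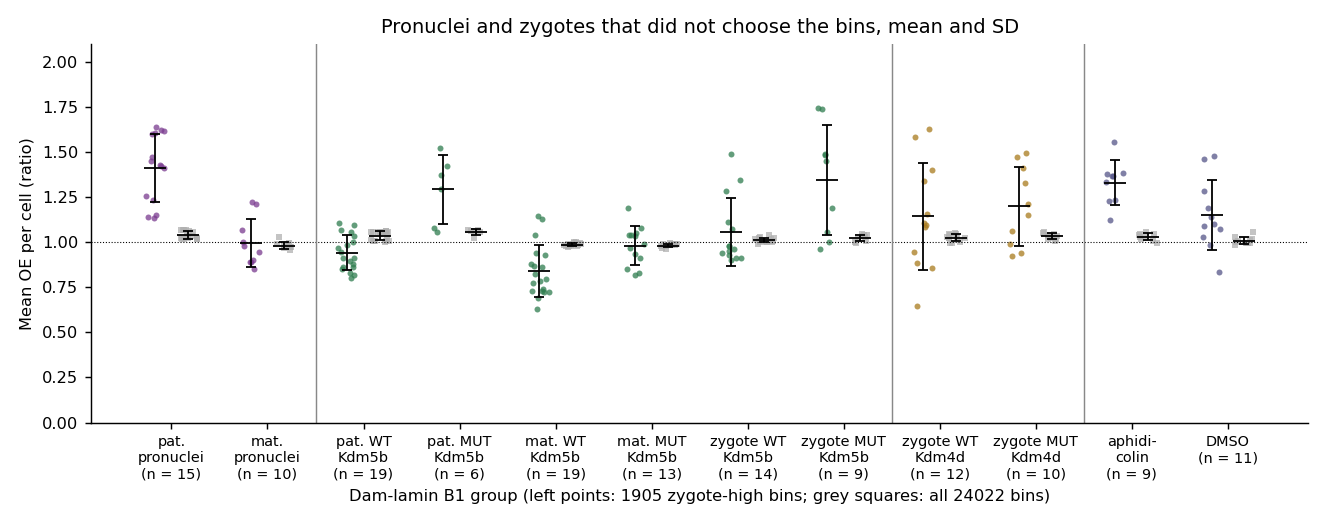
Mean OE over the 1905 zygote-high bins in each pronucleus or zygote (coloured points, vertical axis) of the groups that the rule did not use (horizontal axis), beside the mean over all bins (grey squares), with the group mean and SD. Paternal pronuclei span 1.14 to 1.64 and maternal pronuclei 0.85 to 1.22.

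Bin by bin, 115 of 1903 zygote-high bins were higher in paternal pronuclei (limma, adjusted p under 0.05 over all bins), where 1.49% of all bins were higher, and 2 were lower, where 0.3% were lower. At an unadjusted p under 0.05 there were 627 higher and 34 lower (32.9% and 1.79%), against 12.4% and 4.0% of all bins. The median log2 difference was 0.51 with quartiles of 0.13 and 0.85, against 0.13 over all bins and 0.01 over the kept bins, and 81.7% of the zygote-high bins were positive, against 60.9% of all bins. The count of bins that passed depended on depth and scaling. Paternal pronuclei were deeper, at a median of 144831 reads with 9.20% of bins empty, against 83316 reads and 24.1% in maternal pronuclei. With every pronucleus thinned to 31373 reads 3 bins were higher and 0 lower, against 8 higher and 9 lower of all 23897 bins tested. With values centred within each pronucleus 6 were higher and 0 lower, against 16 higher and 14 lower of all 23964 bins. The median log2 difference was 0.47 and 0.39 under these settings, against 0.09 and 0.01 over all bins.

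Of the bins that passed, 12 held the midpoint of a protein-coding gene. The bin with the smallest adjusted p, chr18:70900001-71000000, had 0 at the lowest, 1.98 at the median and 3.26 at the highest in paternal pronuclei, against 0, 0 and 0.485 in maternal pronuclei. The log2 difference was 1.82 (SE 0.345, limma adjusted p = 0.00674), and 12 of 15 paternal and 0 of 10 maternal pronuclei reached 1. At chr5:79600001-79700000 the values were 0, 2.13 and 2.97 in paternal and 0, 0.0984 and 1.00 in maternal pronuclei, a log2 difference of 1.69 (SE 0.368, limma adjusted p = 0.00904). The gene-free bins at chr12:96700001-96800000, chr17:62200001-62300000 and chr3:43100001-43200000 had log2 differences of 1.59, 1.63 and 1.67.

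Gabrg1, which encodes a subunit of the inhibitory receptor named above, was among the genes in such bins. Its bin, chr5:70700001-70800000, had 0, 1.67 and 6.07 in paternal pronuclei, against 0, 0 and 1.94 in maternal pronuclei, with a log2 difference of 1.51 (SE 0.369, limma adjusted p = 0.0175). An OE of 1 was reached in 11 of 15 paternal and 1 of 10 maternal pronuclei. The bin of the promoter of Olfr1265, chr2:90000001-90100000, holds 5 olfactory receptor genes and had 0.720, 2.14 and 4.05 in paternal pronuclei, against 0, 0.150 and 5.15 in maternal pronuclei, with a log2 difference of 1.69 (SE 0.386, limma adjusted p = 0.0104). One maternal pronucleus lay above all the paternal ones in that bin. The bin with the Gria2 promoter, chr3:80800001-80900000, which holds the glycine receptor gene Glrb, averaged 2.06 in paternal and 0.398 in maternal pronuclei, with a log2 difference of 1.43 (limma adjusted p = 0.0281). Gria2 itself is assigned by its midpoint to another bin. Of the 4 bins assigned to glutamate receptor genes, 0 passed this comparison. The other bins that passed with a gene midpoint were higher in paternal pronuclei too and were named after their values were seen. They hold Alcam, an adhesion molecule of leukocytes and neurons, Bche, which encodes butyrylcholinesterase, Sis, an intestinal disaccharidase, Rgs18, a regulator of G-protein signalling, Acss3, Vgll3, Cox7b2 and Gmnc. Bche averaged 3.13 in paternal and 0.886 in maternal pronuclei, and Alcam 2.07 and 0.283. The exception was a lower bin, chr1:181900001-182000000, which holds Enah, a regulator of actin filaments. It had 0, 0.494 and 2.66 in paternal pronuclei, against 0.287, 2.82 and 5.69 in maternal pronuclei, a log2 difference of -1.35 (SE 0.377, limma adjusted p = 0.0370), with overlapping ranges. That call was lost under 5 of 7 alternatives, with adjusted p between 0.0328 and 0.156 over the 7. Most calls of higher bins were lost under some settings too. Of the zygote-high bins only 3 were higher with equal reads and 6 with values centred, in place of 115. The other lower bin, at the start of chromosome 9, was poorly covered, with 1 read worth an OE of 2.79.

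**Figure D5:**
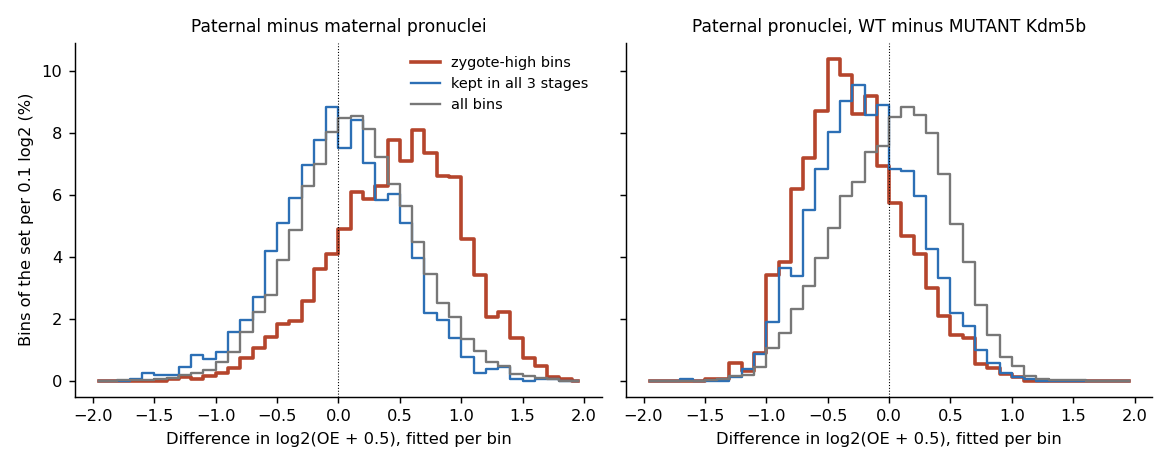
Distribution of the log2 difference per bin, paternal over maternal pronuclei and wild-type over mutant Kdm5b in paternal pronuclei (horizontal axis), as the percentage of bins (vertical axis), for the zygote-high bins, the kept bins and all bins. The median of the zygote-high bins is 0.51 for paternal over maternal pronuclei and -0.32 for wild-type over mutant Kdm5b.

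Wild-type Kdm5b went with lower values of these bins in paternal pronuclei, though no bin passed the test. The median zygote-high bin had a mean OE of 0.923 with wild-type and 1.28 with mutant Kdm5b, against 1.03 and 0.987 over all bins. Other high bins were lower too. The kept bins had medians of 1.06 and 1.32. The 549 bins that passed the zygote threshold and were low only at the 2-cell stage had 0.979 and 1.28. Quartiles over all bins were 0.880 and 1.18 with wild-type, a narrower span than the 0.731 and 1.33 with mutant Kdm5b. Whether the zygote-high bins fell beyond this narrowing was not tested. Per pronucleus the mean over the zygote-high bins was 0.942 ± 0.0973 with wild-type (SD, n = 19, range 0.801 to 1.1) and 1.29 ± 0.189 with mutant Kdm5b (n = 6, range 1.06 to 1.53), so the ranges overlapped at their ends. Of 1903 zygote-high bins 0 passed in either direction (limma, adjusted p under 0.05, where 0% of all bins passed), and at an unadjusted p under 0.05 there were 39 higher and 356 lower (2.05% and 18.7%), against 7.24% and 7.26% of all bins. The median log2 difference was -0.32, against 0.06 over all bins and -0.19 over the kept bins, and 1452 bins (76.3%) were negative, against 45% of all bins. With values centred within each pronucleus 12 bins were lower, against 47 lower and 5 higher of all 23967 bins tested. The median pronucleus had 104848 reads with wild-type and 103740 with mutant Kdm5b.

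Gene families in the zygote-high bins had differences of both signs there, and none of their bins passed the test. Whether these signs differ from those of other bins at the same level was not tested. The difference was positive in 2 of the 30 olfactory receptor bins, in 1 of the 8 prolactin bins, in 2 of the 7 bins of long adhesion genes, in 1 of the 3 protocadherin bins and in 0 of the 4 bins of gamma-aminobutyric acid receptors, whose median log2 difference was -0.89. It was positive in 4 of the 4 vomeronasal receptor bins (median 0.29), in 10 of the 15 solute carrier bins (0.24), in 4 of the 5 potassium channel bins (0.38), in 3 of the 4 bins of ribosomal proteins (0.19) and in 3 of the 4 of developmental transcription factors (0.04). Glutamate receptors had 2 of 4 and Zfp genes 4 of 8. In the bin of Gabrb2, which encodes another subunit of that receptor, paternal pronuclei had 0, 0.789 and 2.15 with wild-type Kdm5b, against 0.825, 2.02 and 3.18 with mutant Kdm5b. In the bin of Prl3d1 they had 0, 0.765 and 2.51 with wild-type, against 1.2, 1.44 and 3.61 with mutant Kdm5b, where all 6 pronuclei reached 1.

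The other comparisons gave smaller differences. In maternal pronuclei 0 of the zygote-high bins passed for wild-type against mutant Kdm5b (limma, where 0% of all bins passed), and at an unadjusted p under 0.05 60 were higher and 100 lower (3.16% and 5.26%), against 6.8% and 2.43% of all bins. There the median log2 difference was -0.04, against 0.12 over all bins. Per pronucleus the mean was 0.839 ± 0.145 with wild-type (SD, n = 19) and 0.980 ± 0.108 with mutant Kdm5b (n = 13). The difference of the Kdm5b effect between paternal and maternal pronuclei passed for 0 of 1904 bins (limma interaction, where 0.00417% of all bins passed). At an unadjusted p under 0.05 there were 149 (7.83%), a share near the 6.29% of all bins, with a median of -0.26, against -0.07 over all bins. In whole zygotes 0 bins passed for Kdm5b (limma, where 0% of all bins passed). Unadjusted, 83 were higher and 173 lower (4.36% and 9.1%), against 13.0% and 3.62% of all bins, with a median of -0.18, against 0.15 over all bins. Their per-zygote means were 1.06 ± 0.187 with wild-type (SD, n = 14) and 1.35 ± 0.304 with mutant Kdm5b (n = 9), at median depths of 215949 and 85651 reads. Quartiles over all bins were narrower in these zygotes too, at 0.816 and 1.19 with wild-type, against 0.596 and 1.38 with mutant Kdm5b. For wild-type against mutant Kdm4d 0 bins passed (limma, where 0.00418% of all bins were higher). Unadjusted, 18 were higher and 67 lower (0.947% and 3.52%), against 1.72% and 2.26% of all bins, with per-zygote means of 1.14 ± 0.298 (SD, n = 12) with wild-type and 1.2 ± 0.219 with mutant Kdm4d (n = 10). For aphidicolin against DMSO 0 bins passed (limma, where 0.00836% of all bins were higher and 0.00418% lower). Unadjusted, 122 were higher and 25 lower (6.41% and 1.31%), against 2.91% and 2.79% of all bins, with per-zygote means of 1.33 ± 0.123 (SD, n = 9) with aphidicolin and 1.151 ± 0.195 with DMSO (n = 11). The DMSO zygotes are those of the comparison with Dam alone.

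The largest falls from zygotes to the higher of the later means separated into poorly covered bins and well-covered ones. The largest of all, chr2:176600001-176700000, had a zygote mean of 8.64 that came from 1 of 19 zygotes at 164, and the other zygotes and the cells of the other stages were listed at 0. The bins at chr4:146800001-146900000 and chr18:90600001-90700000 had zygote means of 6.93 and 4.33, where 1 read was worth an OE of 52 and 47.3. Such bins were few, since 1 read was worth 2 or more in 12 of the 1905 zygote-high bins (0.631%), against 1.08% of all bins. Among the well-covered bins, chr5:82600001-82700000 had 0.626 at the lowest, 2.46 at the median and 7.87 at the highest in zygotes, 17 of 19 at 1 or more, and means of 0.636 in 2-cell and 0.80 in 8-cell embryos. The bin chr2:48900001-49000000, which holds the origin recognition gene Orc4, averaged 2.66 ± 1.97 in zygotes (SD, n = 19), 0.498 in 2-cell embryos, 0.561 in 8-cell embryos and 0.846 in ES cells. Just inside the rule were the bin of Arhgap19 at chr19:41700001-41800000 (by its zygote mean) and chr8:96300001-96400000 (8-cell mean 0.85). Just outside were the bin of Raph1 at chr1:60500001-60600000, whose zygote mean fell short of the threshold by less than the rounding, and the bin of Vmn1r66 at chr7:10200001-10300000 with a 2-cell mean of 0.85 that exceeded it before rounding.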

How the data were processed

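The authors deposited, for each single cell, the ratio of observed to expected reads (OE) in autosomal bins of 100 kb. The sources used here do not state how the expectation was made. Build mm10, cutadapt and BWA 0.7.12 are named in the submitters' processing notes, and the authors also deposited ICM and TE LAD coordinates. Of 24639 bins, 617 held no value and were left out. Of 512 cells, 14 had contradictory labels and entered no group. The samples of pooled cells, ICM and TE were not used. The oocytes, cleavage-stage cells and ES cells were described only.

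Bins with a mean OE of at least 0.1 were fitted with limma 3.58.1 (R 4.3.3) on log2(OE + 0.5), a scale that understates changes of low bins. P-values were Benjamini-Hochberg adjusted over all bins, separately in 7 comparisons. The fits were tested on simulated data. Depth was recovered from OE steps, with 99.8% or more of the low values whole within 0.02 reads in every cell. Python 3.11.15 (numpy 2.4.6, pandas 2.3.3, scipy 1.17.1, matplotlib 3.10.9) was used. Alternatives were other pseudocounts, no filter, centring, a replicate block, leaving out cells, and thinning to equal reads. The members and gene lists were chosen with earlier results of these data known.

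The bins named were the 10 largest falls from zygotes, the 5 longest runs, bins beside the thresholds, up to 5 called in each direction per comparison, and bins with listed genes, of which some are not reported here. Genes were assigned by midpoint in RefSeq GRCm38.p6. The bin of the Gria2 promoter and the per-family details were chosen after their values were seen.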

Additional observations from a re-analysis of the deposited data

How the results depend on the processing

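Direction under the alternatives was checked for the bins named as called in each comparison. Of these checks 103 kept the call, 16 lost it, and none changed direction. The direction of the other called bins was not checked. The small median difference of -0.04 for wild-type against mutant Kdm5b in maternal pronuclei became 0.02 with a pseudocount of 0.1. Centring turned the sign of some medians over other bins: over all bins it gave -0.08 in place of 0.12 for Kdm5b in maternal pronuclei, -0.04 in place of 0.15 in whole zygotes and -0.04 in place of 0.06 in paternal pronuclei, and over the kept bins -0.11 in place of 0.01 for paternal against maternal pronuclei. The number of zygote-high bins higher in paternal than in maternal pronuclei was 115, and it was 46 with a replicate block, 6 with values centred and 3 with equal reads, an alternative chosen after seeing the data. Over all bins the counts were 356, 140, 16 and 8 in the same order. The 2 lower bins became 1 with a pseudocount of 1 or of 0.1, and 0 with no filter, with centring, with the replicate block and with equal reads. Over all bins 72 were lower, and 71, 42, 46, 14, 23 and 9 under these settings in the same order. For wild-type against mutant Kdm5b in paternal pronuclei, 1 bin was lower with a pseudocount of 1 and 12 with centring, against 6 and 47 of all bins. For DMSO zygotes with Dam-lamin B1 against Dam alone, 417 bins were higher with the replicate block and 628 with equal reads, and 93 were lower with equal reads. Over all bins 2138 and 2837 were higher, and 2444 were lower with equal reads. The cause was not tested. The rule itself gave 2424 bins with thresholds 10% above and below an OE of 1, and 1494 with thresholds 20% above and below it. With medians over cells in place of means it gave 2147 bins, of which 1162 were among those chosen. Between same-numbered samples a correlation over 0.1 was found in at most 2 of 9 pairs, those of whole zygotes with Kdm5b. There the median was 0.034, against -0.006 for other pairs. Such correlations of sparse single-cell values cannot show whether same-numbered samples share an origin, which the labels do not name. The block also used fewer samples, 8 DMSO zygotes against 8 with Dam alone in place of 11 against 46, and 10 paternal pronuclei in place of 15, so its counts reflect fewer samples too. Single bins are limited by depth: 1 read was worth an OE of 0.588 in the median zygote.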
